A study of Homo sapiens with 35 samples.

Results

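The RNA of 10 genes of the Wnt pathway was followed in BE(2)-C cells, a human neuroblastoma line, under a retinoid, a histone deacetylase inhibitor or both. They were DKK1, DKK3, LGR5, AXIN2, LEF1, TCF7L2, SFRP1, FZD7, WNT5A and CTNNB1, and every probe set annotated to exactly 1 of these symbols was taken. A probe set is a group of short array probes that report on 1 transcript. The rule found 23 probe sets for 9 of the 10 genes, among 19415 probe sets with 1 symbol that cover 11940 genes, and none for AXIN2. Each gene is described by its brightest probe set over all arrays, and the remaining probe sets are given where they differ.

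The cells received all-trans retinoic acid at 5 µM (ATRA, a ligand of the retinoic acid receptors), valproic acid at 1 mM (VPA, an inhibitor of histone deacetylases), both together at those doses (ATRA+VPA), or the vehicle DMSO. RNA was taken after 6, 24 and 72 h and hybridised to 35 Affymetrix human genome arrays of an early access design. Each of the 12 groups held 3 arrays, except DMSO at 72 h, which held 2. All groups are cultures of 1 established line, and nothing in the labels says whether the triplicates were separate cultures, so each p-value measures the spread between these samples alone.

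In the canonical Wnt pathway, a secreted Wnt protein binds a Frizzled receptor and an LRP coreceptor, the complex that degrades beta-catenin is switched off, and beta-catenin enters the nucleus to work with TCF and LEF factors. Secreted antagonists limit the signal: DKK1 binds the coreceptors and SFRP proteins bind Wnt proteins. Several components are themselves known targets of the pathway in other cells, among them AXIN2, LEF1, LGR5 and DKK1, so their RNA is often read as a sign of its activity. Retinoids are used as differentiation therapy in neuroblastoma, a tumour of the developing sympathetic nervous system.

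Values are intensities on a linear scale that the authors summarised and normalized with RMA, a method that corrects background, equalises arrays and combines the probes of a set. The lowest 25% of the probe sets of an array lay under a value, its lower quartile, between 20.8 and 23.6, and without detection calls a mean close to these values may be background. Array medians lay between 53.1 and 58.9, apart from DMSO 24 h replicate 1 at 43.6, which had the largest residual SD (0.234, against 0.0827 to 0.171 in the other arrays). Counts of the 9 genes against DMSO at 24 h and over time in DMSO are given with and without this array, as are calls that change without it. Of the markers of sympathetic neuroblastoma, 9 of 9 measured were above the lower quartiles in all 12 groups, and so were 7 of 10 mesenchymal, 3 of 8 epithelial, 1 of 6 Schwann and glial and 1 of 6 haematopoietic markers. Among the last, the defining gene PTPRC had group means of at most 23.0, within the range of the lower quartiles.

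A log2 ratio of the 3′ over the 5′ signal of the GAPDH and beta-actin control probe sets, a sign of how intact the RNA and its copies are, moved with the groups. At 72 h it averaged 1.82 with ATRA, 1.09 with VPA and 1.36 with ATRA+VPA, against 1.06 with DMSO. At 24 h it averaged 0.887 with ATRA, 1.60 with VPA and 0.971 with ATRA+VPA, against 1.05 with DMSO, and at 6 h it lay between 0.202 and 0.444. Its part in the changes of the Wnt genes was examined only by a fit that holds it as a covariate, and calls on changes from DMSO or over time in DMSO that were lost there are named with the gene. Some probe sets passed only in that fit, and examples are given with FZD7, LGR5 and DKK3.

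Reference sequence around the start of transcription was used for 5 of the 10 genes, in 8 windows of 300 bases (250 before the start and 50 from it, RefSeq, build GRCh38.p14). The DKK1 window is shown because DKK1 had the second largest change of the measured Wnt genes and because its window alone among those 8 held the core letters of a TCF/LEF site, CTTTGA, searched on both strands. It lies at chr10:52314031-52314330 on the plus strand, and capitals mark the 2 matches, which begin 149 and 95 bases before the start, the first of them on the opposite strand and so read as TCAAAG.
DKK1 promoter: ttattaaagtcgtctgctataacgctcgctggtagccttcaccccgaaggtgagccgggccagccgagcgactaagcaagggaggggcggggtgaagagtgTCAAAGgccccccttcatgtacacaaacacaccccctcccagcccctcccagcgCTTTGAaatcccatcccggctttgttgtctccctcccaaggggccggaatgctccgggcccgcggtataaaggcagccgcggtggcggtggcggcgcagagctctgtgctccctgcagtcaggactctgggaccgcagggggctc
Of 35116 promoter windows of the same length, 12.9% held this core at least once. The DKK1 window also held 1 GC box (GGGCGG, present in 45% of the windows) 166 bases before the start and 1 TATAAA 30 bases before it, neither of which overlaps the marked letters. It held neither of the retinoic acid receptor half-sites searched, AGGTCA (13.8% of windows) and AGTTCA (10.4%). These are matches of letters in a short window and say nothing about binding.

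The changes ran in different directions within the pathway. The receptor gene FZD7 rose under all 3 treatments at every time on its brightest probe set, up to 10.2-fold. Its VPA call at 6 h rested on 1 DMSO array, and its second probe set was not called with VPA at any time without a covariate. The antagonist gene DKK1 stood up to 9.49-fold above DMSO. DKK3 rose chiefly with VPA, and SFRP1 fell with ATRA but rose with VPA at 24 and 72 h. The receptor gene LGR5 fell with the combination at every time on its brightest probe set alone, and its 6 h call was lost in some fits. CTNNB1, which encodes beta-catenin, passed in no comparison with DMSO. Folds are ratios of intensity plus 1, and tests are from limma, adjusted over all 11940 genes within each comparison with a threshold of 0.05.

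With ATRA, 1 of the 9 genes rose and 0 fell at 6 h, where 1.62% of all genes were called (1.03% rose and 0.586% fell). At 24 h there were 2 rises and 2 falls, against 18.5% of all genes called (12.5% rose and 6.03% fell). At 72 h there were 4 rises and 2 falls, against 30.9% of all genes called (10.7% rose and 20.2% fell). Without DMSO 24 h replicate 1 the 24 h count was 2 rises and 1 fall, with 13.9% of all genes called, the lost fall being that of TCF7L2. The median change of the 9 genes at 72 h was 0.15 on the log2 scale, and that of all genes was 0.0015.

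With VPA, 3 of the 9 rose and 0 fell at 6 h, against 11.2% of all genes called (6.46% rose and 4.7% fell). At 24 h 6 rose and 1 fell, against 12.2% of all genes called (9.66% rose and 2.49% fell), and at 72 h 5 rose and 0 fell, against 6.67% (4.51% rose and 2.15% fell). The median change of the 9 genes under VPA was 0.44 at both 24 and 72 h, against 0.05 and -0.02 for all genes at those times. Without DMSO 24 h replicate 1, 6 rose and 2 fell at 24 h, with 11.3% of all genes called, the added fall being CTNNB1. When only the groups compared were fitted, the 24 h rises of DKK1, SFRP1, FZD7, LEF1 and TCF7L2 did not pass (adjusted p from 0.0778 to 0.175).

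With ATRA+VPA, 3 rose and 1 fell at 6 h, against 11.6% of all genes called (6.73% rose and 4.87% fell). At 24 h 4 rose and 2 fell, against 21.2% (13.5% rose and 7.79% fell), and at 72 h again 4 rose and 2 fell, against 31.5% (14.9% rose and 16.6% fell). The count at 24 h was the same without DMSO 24 h replicate 1, with 18.3% of all genes called. These comparisons share their DMSO arrays within a time, so their errors are not independent. With so few arrays, groups often did not overlap. ATRA and DMSO arrays lay apart for 19.3%, 27.1% and 53.8% of all genes at 6, 24 and 72 h. The shares were 30%, 21.3% and 41.4% with VPA, and 28.6%, 27.2% and 55.5% with ATRA+VPA. Of the 9 genes, 5, 5 and 7 did so with ATRA, 7, 8 and 6 with VPA, and 5, 6 and 8 with ATRA+VPA. A separation without a call is description only.

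**Figure D1:**
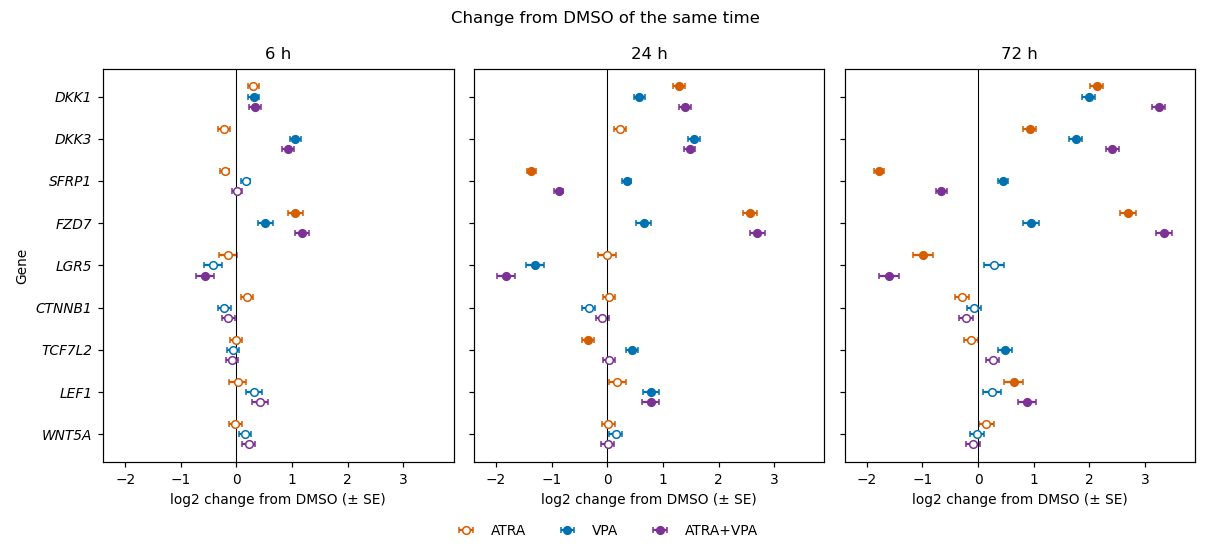
Log2 change from DMSO of the same time (x axis, with standard errors) for the 9 measured Wnt genes (y axis) at 6, 24 and 72 h. Filled points passed an adjusted p of 0.05 and open points did not. At 72 h FZD7 and DKK1 lie farthest to the right with ATRA+VPA (3.35 and 3.25), and SFRP1 lies farthest to the left with ATRA (-1.77).

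Among the ligands, WNT5A, which encodes a Wnt protein known mainly for signalling without beta-catenin, gave no usable signal. Its values lay between 14.3 and 22.2 on the 35 arrays, within or under the range of the lower quartiles. The group means ran from 16.9 to 20.9, and neighbouring groups in that order overlapped throughout. No comparison was called, and at 72 h the change was 0.15 ± 0.13 with ATRA, -0.02 ± 0.13 with VPA and -0.09 ± 0.13 with ATRA+VPA (log2, SE). Its other probe set was as dim, with 14.3 ± 0.8 in ATRA+VPA arrays and 18.0 ± 1.0 in DMSO arrays at 72 h (SD, n = 3 and n = 2), and was called lower there in the fit over all probe sets (log2 change -0.31, adjusted p = 0.0196).

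FZD7, a Frizzled receptor that binds Wnt proteins, showed the largest change of the 9 genes. At 6 h it read 215, 245 and 228 with ATRA, 141, 167 and 166 with VPA and 249, 271 and 227 with ATRA+VPA, against 115, 118 and 96.8 with DMSO. By 24 h the FZD7 arrays read 487, 536 and 521 with ATRA, 146, 145 and 119 with VPA and 584, 525 and 583 with ATRA+VPA, against 62.3, 104 and 98.8 with DMSO. By 72 h the FZD7 arrays read 329, 403 and 382 with ATRA, 110.5, 108 and 111 with VPA and 608, 546 and 588 with ATRA+VPA, against 61.7 and 51.1 with DMSO. At each time every treated array lay above every DMSO array of that time, and the ATRA and ATRA+VPA arrays also lay above all VPA arrays.

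With ATRA, FZD7 was 2.09-fold higher than with DMSO at 6 h (log2 change 1.06 ± 0.13, SE, adjusted p = 3.2e-06), and no other of the 9 genes was called that early with ATRA. The ratio reached 5.92-fold at 24 h (2.56 ± 0.13, adjusted p = 2.89e-15) and 6.49-fold at 72 h (2.70 ± 0.15, adjusted p = 9.08e-15). With ATRA+VPA it was 2.26-fold at 6 h, 6.48-fold at 24 h and 10.2-fold at 72 h (adjusted p = 1.85e-07, 9.22e-16 and 3.14e-17). VPA alone gave smaller rises of 1.43-fold, 1.57-fold and 1.94-fold at 6, 24 and 72 h (adjusted p = 0.00726, 0.000894 and 4.31e-05). The VPA change at 6 h did not pass without DMSO 6 h replicate 3 (0.43, adjusted p = 0.0616). Without DMSO 24 h replicate 1, whose 62.3 was the lowest of its group, the VPA change at 24 h was 0.42 instead of 0.65 and still passed (adjusted p = 0.012).

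The 72 h ratio of FZD7 also contains a fall in the vehicle cultures. DMSO arrays averaged 56.4 ± 7.4 at 72 h (SD, n = 2) and 109.8 ± 11.3 at 6 h (n = 3), a 1.93-fold lower value at 72 h (adjusted p = 5.26e-05). The ATRA+VPA level itself changed little after 24 h, with means of 564 at 24 h and 580.4 at 72 h whose arrays overlap. With ATRA alone the level was lower at 72 h (371) than at 24 h (515), with no overlap between the arrays. The second FZD7 probe set gave 5.03-fold with ATRA and 7.92-fold with ATRA+VPA at 72 h, but its VPA changes of 0.28, 0.41 and 0.47 at 6, 24 and 72 h did not pass (adjusted p = 0.412, 0.135 and 0.203 in the fit over all probe sets). With the 3′ to 5′ ratio as a covariate its VPA change at 24 h passed (0.56, adjusted p = 0.0453).

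LGR5, a receptor for R-spondins that strengthens Wnt signalling and marks stem cells in several epithelia, fell. At 6 h it read 802, 908 and 844 with ATRA, 658, 743 and 741 with VPA and 562, 664 and 717 with ATRA+VPA, against 1009, 937 and 907 with DMSO. After 24 h the arrays read 450.4, 469 and 499.9 with ATRA, 179.6, 187 and 214 with VPA and 130.03, 116 and 159 with ATRA+VPA, against 337, 525 and 613 with DMSO. After 72 h the arrays read 135, 199 and 229.7 with ATRA, 479, 416 and 455 with VPA and 129.6, 112 and 122 with ATRA+VPA, against 361 and 375 with DMSO. The combination arrays lay below every DMSO array at all 3 times, the VPA arrays did so at 6 and 24 h and lay above DMSO at 72 h, and the ATRA arrays lay clear of DMSO only at 72 h.

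With ATRA+VPA, LGR5 was 1.47-fold lower than with DMSO at 6 h (adjusted p = 0.0194), 3.54-fold lower at 24 h (log2 change -1.82 ± 0.16, SE, adjusted p = 5.91e-10) and 3.02-fold lower at 72 h (-1.60 ± 0.18, adjusted p = 3.08e-08). The 6 h call was lost without DMSO 6 h replicate 1 (adjusted p = 0.0859) or ATRA+VPA 6 h replicate 1 (adjusted p = 0.117). It was also lost when both LGR5 probe sets were averaged (adjusted p = 0.052). VPA alone gave a 2.46-fold lower value at 24 h (adjusted p = 1.19e-06) and no call at 72 h, where the change was 0.29 ± 0.18 (adjusted p = 0.445). ATRA alone gave no call at 24 h (-0.01 ± 0.16, adjusted p = 0.974) and a 2.00-fold lower value at 72 h (adjusted p = 7.67e-05). At 24 h the LGR5 mean was 193 with VPA and 473 with ATRA, and at 72 h it was 450.1 with VPA and 188 with ATRA. The combination was below ATRA at 24 h (-1.81, adjusted p = 3.61e-09) and below VPA at 72 h (-1.88, adjusted p = 2.01e-10). Its smaller differences from VPA at 24 h (-0.52, adjusted p = 0.031) and from ATRA at 72 h (-0.60, adjusted p = 0.00807) were lost when both LGR5 probe sets were averaged (adjusted p = 0.197 and 0.113). That from VPA was also lost in 4 of 6 fits that left out 1 array (adjusted p up to 0.173), and that from ATRA without ATRA 72 h replicate 3 (adjusted p = 0.066).

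The decline of LGR5 ran alongside its own fall in DMSO, where it was 1.99-fold lower at 24 h and 2.58-fold lower at 72 h than at 6 h (adjusted p = 0.00021 and 5.39e-06). Without DMSO 24 h replicate 1 the LGR5 change at 24 h was -0.74 instead of -0.99 and still passed (adjusted p = 0.00278). It did not pass when only the groups compared were fitted (adjusted p = 0.0725). The second LGR5 probe set was much closer to the lower quartile, with 24-h means of 24.9 ± 5.1 for ATRA+VPA and 42.4 ± 10.0 for DMSO (SD, n = 3 each). No treatment change passed on it without a covariate, although its ATRA+VPA change was negative at all 3 times (-0.60, -0.74 and -0.49). The change at 24 h passed with the 3′ to 5′ ratio as a covariate (-0.79, adjusted p = 0.0208). The fall over time in DMSO did pass on this probe set (-1.96 at 24 h, adjusted p = 8.72e-05, and -2.38 at 72 h, adjusted p = 1.04e-05, in the fit over all probe sets). Since each array measured the RNA of a whole culture, fewer LGR5-expressing cells and less LGR5 RNA per cell cannot be told apart, and this holds for every gene here.

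**Figure D2:**
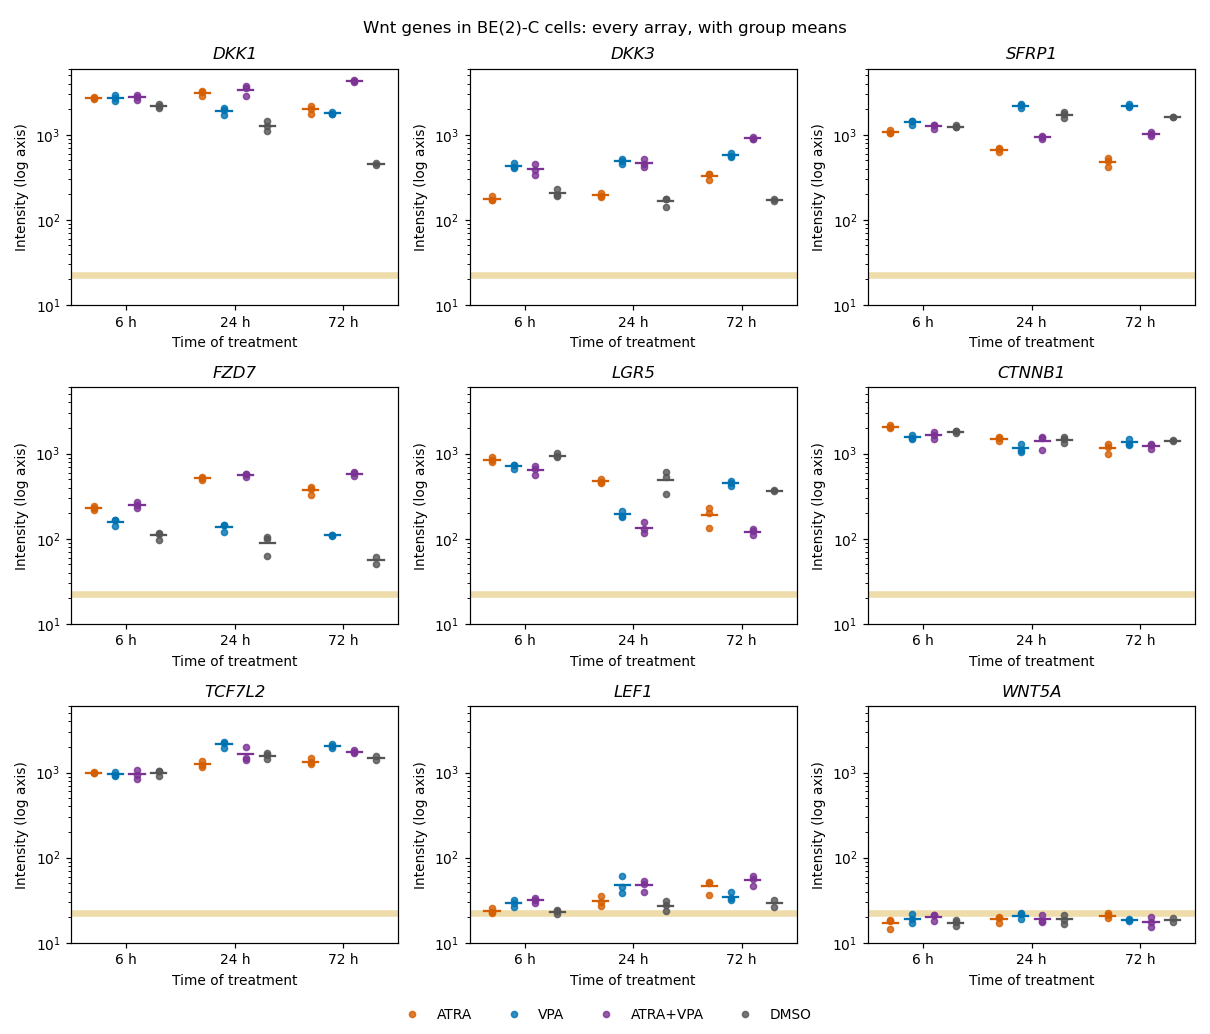
Intensity of the brightest probe set of each measured Wnt gene (log y axis) on all 35 arrays, by treatment and time (x axis). Points are arrays, short bars are group means, and the shaded band is the range of the arrays' lower quartiles (20.8 to 23.6). DKK1 in DMSO arrays drops to 442 and 463 at 72 h, FZD7 with ATRA stays above 214 at every time, and WNT5A never leaves the band upward.

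DKK1, the secreted antagonist of LRP coreceptors, averaged between 2193 and 2769 in the 4 groups at 6 h, and 452 with DMSO at 72 h. At 6 h it read 2787, 2663 and 2674 with ATRA, 2943, 2682 and 2524 with VPA and 2813, 2571 and 2922 with ATRA+VPA, against 2314, 2202 and 2064 with DMSO. At 24 h it read 3215, 2880.5 and 3249 with ATRA, 1698, 1946 and 2075 with VPA and 2825, 3537 and 3756 with ATRA+VPA, against 1121, 1283 and 1436 with DMSO. At 72 h it read 2033, 1745 and 2192 with ATRA, 1776, 1838 and 1776 with VPA and 4162, 4293 and 4458 with ATRA+VPA, against 442 and 463 with DMSO. Every treated array lay above every DMSO array of its time.

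The DKK1 ratio to DMSO at 72 h was 4.37-fold with ATRA (log2 change 2.13 ± 0.11, SE, adjusted p = 7.45e-15), 3.97-fold with VPA (1.99 ± 0.11, adjusted p = 5.65e-13) and 9.49-fold with ATRA+VPA (3.25 ± 0.11, adjusted p = 1.84e-19). At 24 h it was 2.44-fold with ATRA, 1.49-fold with VPA and 2.63-fold with ATRA+VPA (adjusted p = 6.07e-11, 0.000216 and 9.69e-12). At 6 h the changes were 0.31 with ATRA, which did not pass (adjusted p = 0.195), 0.31 with VPA (adjusted p = 0.0482) and 0.34 with ATRA+VPA (adjusted p = 0.0271). The VPA call at 6 h was lost in 5 of 6 fits that left out 1 array, with adjusted p up to 0.218, and the ATRA+VPA call in 4 of 6, with adjusted p up to 0.124.

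The 72 h ratio of DKK1 also contains a fall in the vehicle. Compared with 6 h, DKK1 in DMSO was 1.72-fold lower at 24 h (adjusted p = 1.28e-05) and 4.83-fold lower at 72 h (log2 change -2.27 ± 0.11, adjusted p = 3.24e-14). The 72 h means with ATRA (1990 ± 226, SD, n = 3) and VPA (1797 ± 36) were below the DMSO mean at 6 h (2193 ± 125), and the ATRA arrays overlapped those of DMSO at 6 h. The ATRA+VPA mean at 72 h, 4305 ± 148, was the highest of the 12 groups and its arrays overlapped those of no other group.

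DKK3, a member of the Dickkopf family whose part in Wnt signalling is less clear than that of DKK1, followed VPA. At 6 h it read 172, 169 and 188 with ATRA, 464, 416 and 408 with VPA and 456, 388 and 337 with ATRA+VPA, against 190.2, 229 and 198 with DMSO. DKK3 at 24 h read 184, 208 and 189 with ATRA, 488, 512 and 459 with VPA and 522, 451 and 412 with ATRA+VPA, against 178, 174 and 143 with DMSO. DKK3 at 72 h read 344, 345 and 291 with ATRA, 616, 566 and 552 with VPA and 898, 879.8 and 951 with ATRA+VPA, against 167 and 174 with DMSO. All VPA and ATRA+VPA arrays lay above all DMSO arrays of their time, whereas the ATRA arrays lay below DMSO at 6 h and above it at 24 and 72 h.

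VPA raised DKK3 2.08-fold over DMSO at 6 h, 2.95-fold at 24 h and 3.37-fold at 72 h (adjusted p = 4.08e-08, 2.05e-11 and 1.38e-11). ATRA gave a rise at 72 h alone, of 1.90-fold (log2 change 0.93 ± 0.12, SE, adjusted p = 4.27e-07). With the 3′ to 5′ ratio as a covariate the ATRA change at 24 h also passed (0.28, adjusted p = 0.0331 in the fit over all probe sets). The combination stood 1.90-fold, 2.78-fold and 5.31-fold above DMSO at 6, 24 and 72 h (adjusted p = 2.76e-07, 5.79e-12 and 5.53e-16), and at 72 h it was 1.57-fold above VPA (adjusted p = 1.55e-05). Averaging all 3 DKK3 probe sets gave smaller changes, such as 1.24 instead of 2.41 for the combination at 72 h and 0.43 instead of 0.93 for ATRA, and each of the 7 treatment calls still passed. One of those probe sets stayed near 14 throughout (13.7 ± 0.5 with ATRA+VPA and 14.1 ± 0.02 with DMSO at 72 h, SD, n = 3 and n = 2) and was not called against DMSO. The other read 58.6 ± 20.6 with ATRA+VPA and 21.1 ± 1.1 with DMSO at that time. In the fit over all probe sets it passed with VPA and ATRA+VPA at 24 and 72 h. Its VPA call at 24 h was lost with the 3′ to 5′ ratio as a covariate (adjusted p = 0.0708). The same set did not pass at 6 h with VPA (0.48, adjusted p = 0.0922) or ATRA+VPA (0.34, adjusted p = 0.308), or at 72 h with ATRA (0.33, adjusted p = 0.233).

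SFRP1, a secreted protein that binds Wnt proteins and can block their receptors, moved in opposite directions under the single agents. At 6 h it read 1058, 1128 and 1048 with ATRA, 1293, 1459 and 1448 with VPA and 1305, 1309.5 and 1161 with ATRA+VPA, against 1234, 1286 and 1227 with DMSO. At 24 h it read 683, 619 and 702 with ATRA, 2281, 2235 and 2054 with VPA and 962, 903 and 953 with ATRA+VPA, against 1585, 1747 and 1833 with DMSO. At 72 h it read 413, 485 and 528 with ATRA, 2176, 2301 and 2141 with VPA and 1033, 967 and 1081 with ATRA+VPA, against 1608 and 1634 with DMSO. From 24 h on the 4 treatments formed the same order at both times, ATRA lowest, then ATRA+VPA, DMSO and VPA, with no overlap between neighbours.

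With ATRA, SFRP1 was 2.57-fold lower than with DMSO at 24 h (log2 change -1.36 ± 0.08, SE, adjusted p = 1.22e-13) and 3.42-fold lower at 72 h (-1.77 ± 0.09, adjusted p = 3.62e-15). VPA gave 1.27-fold higher at 24 h (adjusted p = 0.00429) and 1.36-fold higher at 72 h (adjusted p = 0.00189). The combination was 1.83-fold lower than DMSO at 24 h and 1.58-fold lower at 72 h (adjusted p = 2.1e-09 and 1.22e-06), and at 72 h it was 2.17-fold higher than ATRA (adjusted p = 3.9e-11). All 3 SFRP1 probe sets passed in these directions for ATRA and for VPA at both times, with ATRA changes at 72 h of -1.77, -1.51 and -1.30. For the combination at 72 h the third probe set did not pass (-0.27 ± 0.17, SE, of the fit over all probe sets), with 148 ± 15 in ATRA+VPA arrays and 178 ± 4 in DMSO arrays (SD, n = 3 and n = 2).

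Beta-catenin, encoded by CTNNB1, is controlled mainly through protein stability, and its RNA showed no call against DMSO. At 72 h CTNNB1 read 1005, 1307 and 1204 with ATRA, 1499, 1317 and 1251 with VPA and 1297, 1127 and 1275 with ATRA+VPA, against 1391 and 1464 with DMSO. The changes were -0.29 with ATRA (95% interval -0.55 to -0.03, adjusted p = 0.0829), -0.08 with VPA (-0.34 to 0.18, adjusted p = 0.841) and -0.21 with ATRA+VPA (-0.48 to 0.05, adjusted p = 0.235). The change nearest the threshold was a fall with VPA at 24 h, where the arrays read 1059, 1112 and 1310 with VPA against 1322, 1495 and 1573 with DMSO (-0.34 ± 0.11, SE, adjusted p = 0.0515). Without DMSO 24 h replicate 1 that change passed (-0.41, adjusted p = 0.0316).

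TCF7L2 and LEF1 encode the DNA-binding partners of beta-catenin. TCF7L2 read 1160.01, 1367 and 1227 with ATRA, 2286, 2213 and 1941 with VPA and 2014, 1501 and 1409 with ATRA+VPA at 24 h, against 1684, 1613 and 1457 with DMSO. At 72 h it read 1316, 1266 and 1467 with ATRA, 2179.9, 2043 and 1948 with VPA and 1697, 1757 and 1843 with ATRA+VPA, against 1556 and 1391 with DMSO. The VPA arrays lay above DMSO at both times, whereas the combination overlapped DMSO at 24 h and lay above it at 72 h.

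VPA raised TCF7L2 1.35-fold at 24 h (adjusted p = 0.00585) and 1.40-fold at 72 h (adjusted p = 0.0101). That at 24 h was lost with the 3′ to 5′ ratio as a covariate (adjusted p = 0.0657), and the 72 h call without DMSO 72 h replicate 2 (adjusted p = 0.211) or VPA 72 h replicate 1 (adjusted p = 0.0511). ATRA gave a 1.27-fold lower value at 24 h (adjusted p = 0.0236), which did not pass once DMSO 24 h replicate 1 was removed (adjusted p = 0.105) or any of 3 further arrays (adjusted p up to 0.114). The combination was not called against DMSO at any time, with changes of -0.08, 0.04 and 0.26 at 6, 24 and 72 h (adjusted p = 0.791, 0.87 and 0.101). In DMSO itself TCF7L2 was 1.58-fold higher at 24 h and 1.47-fold higher at 72 h than at 6 h (adjusted p = 0.000197 and 0.0025).

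The 6 TCF7L2 probe sets disagreed for ATRA at 72 h. The brightest changed by -0.13 and 1 other by 0.14, and neither passed in the fit over all probe sets (adjusted p = 0.487 and 0.602). The remaining 4 were called lower, by -1.13, -0.95, -0.49 and -0.33 (adjusted p = 0.00142, 0.000105, 0.0303 and 0.0277). The set with the largest fall read 92.1, 128 and 92.9 with ATRA against 206 and 249 with DMSO. The next read 71.8, 75.2 and 101 with ATRA against 156 and 163 with DMSO. ATRA and DMSO arrays did not overlap on either.

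The 3′ to 5′ control ratio was highest in these same ATRA arrays (1.82 ± 0.17, against 1.06 ± 0.17 with DMSO, SD, n = 3 and n = 2). With that ratio as a covariate the TCF7L2 set at -0.95 still passed (-0.87, adjusted p = 0.00201). The sets at -1.13 (then -0.66, adjusted p = 0.0608), -0.49 (then -0.22, adjusted p = 0.431) and -0.33 (then -0.28, adjusted p = 0.15) did not. The brightest set moved the other way, from -0.13 to -0.32, and still did not pass (adjusted p = 0.062). The set at 0.14 stayed at 0.13 (adjusted p = 0.743).

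**Figure D3:**
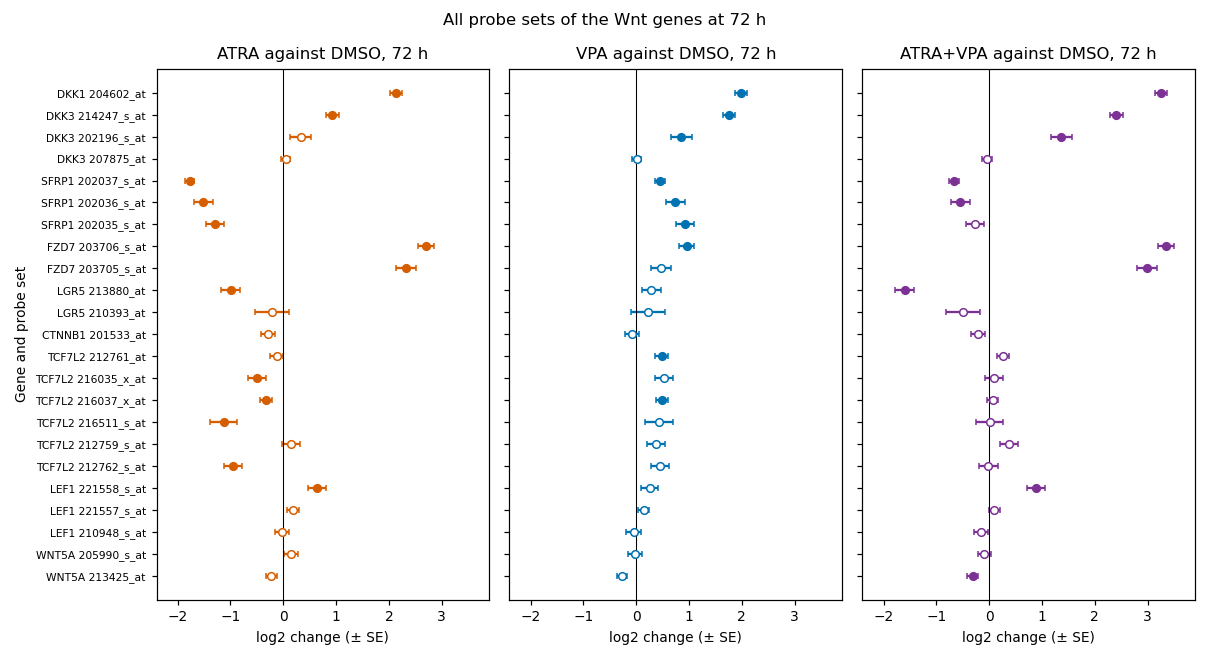
Log2 change at 72 h (x axis, with standard errors) of all 23 probe sets of the Wnt genes (y axis) for ATRA, VPA and ATRA+VPA against DMSO. Filled points passed an adjusted p of 0.05 over 19415 probe sets. The 6 TCF7L2 probe sets spread from -1.13 to 0.14 with ATRA, while the 3 SFRP1 sets all lie below 0 with ATRA and above 0 with VPA.

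LEF1 was dim, with means from 23.2 in DMSO at 6 h, within the range of the lower quartiles, to 54.6 in ATRA+VPA at 72 h, within the range of the array medians, so its folds depend on the pseudocount. At 24 h it read 27.4, 35.6 and 29.8 with ATRA, 38.6, 45.8 and 60.2 with VPA and 53.8, 39.3 and 49.2 with ATRA+VPA, against 30.7, 23.4 and 27.4 with DMSO. At 72 h it read 50.1, 51.5 and 36.8 with ATRA, 39.2, 31.96 and 33.4 with VPA and 55.7, 61.6 and 46.4 with ATRA+VPA, against 31.96 and 26.2 with DMSO. The ATRA+VPA arrays lay above DMSO at both times, the VPA arrays at 24 h and the ATRA arrays at 72 h.

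For LEF1 the combination was called higher at 24 h (log2 change 0.78 ± 0.15, SE, adjusted p = 0.000227) and at 72 h (0.88 ± 0.17, adjusted p = 9.06e-05). VPA was called at 24 h alone (0.79 ± 0.15, adjusted p = 0.000444) and ATRA at 72 h alone (0.64 ± 0.17, adjusted p = 0.00354). With a pseudocount of 32 the combination's change at 72 h was 0.50 and still passed (adjusted p = 0.000152). The ATRA call was lost with the 3′ to 5′ ratio as a covariate (adjusted p = 0.0525) and without DMSO 72 h replicate 2 (adjusted p = 0.0938), and the 24 h calls of VPA and of the combination were lost when all 3 LEF1 probe sets were averaged (adjusted p = 0.21 and 0.0852). On that average the 72 h change of the combination was 0.27 (adjusted p = 0.00475). The other LEF1 probe sets stayed between 14.8 and 23.6 on all arrays at 24 and 72 h, and neither was called against DMSO.

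The combination was set against each single agent to ask what the second agent added. Against ATRA, 1 of the 9 genes rose and 0 fell at 6 h (12% of all genes called, 7.13% up and 4.84% down), 4 rose and 1 fell at 24 h (9.49%, 4.86% up and 4.63% down), and 5 rose and 1 fell at 72 h (20.8%, 14.6% up and 6.2% down). Against VPA, 1 rose and 0 fell at 6 h (0.57%, 0.452% up and 0.117% down), 2 rose and 3 fell at 24 h (11.9%, 5.13% up and 6.74% down), and 4 rose and 2 fell at 72 h (25.7%, 12.3% up and 13.4% down). At 72 h DKK1 was 2.17-fold higher with the combination than with ATRA (adjusted p = 3.95e-09) and 2.39-fold higher than with VPA (adjusted p = 5.91e-11). FZD7 in the combination was 1.57-fold above ATRA and 5.24-fold above VPA at that time (adjusted p = 0.000607 and 1.07e-14).

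Whether the 2 agents added up on the log2 scale was tested by the interaction, the combination's change minus the sum of the single-agent changes. No member passed at 6 h, where 0% of all genes did, or at 24 h, where 0.737% did (0.0754% up and 0.662% down), although 1 and 4 members had an unadjusted p under 0.05 at these times. At 72 h, with 1.92% of all genes called (1.31% up and 0.611% down), DKK1 fell short of the sum (3.25 measured against 4.12 summed, difference -0.87 ± 0.15, adjusted p = 0.00109). SFRP1 fell less than the sum of its single-agent changes (-0.66 measured against -1.33 summed, difference 0.67 ± 0.12, adjusted p = 0.00176), a call lost when its 3 probe sets were averaged (0.33, adjusted p = 0.212). LGR5 fell further than the sum (-1.60 measured against -0.71 summed), just outside the threshold (difference -0.89 ± 0.24, adjusted p = 0.0511). For DKK3 and FZD7 the differences at 72 h were -0.28 (95% interval -0.60 to 0.05) and -0.31 (-0.71 to 0.09).

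**Figure D4:**
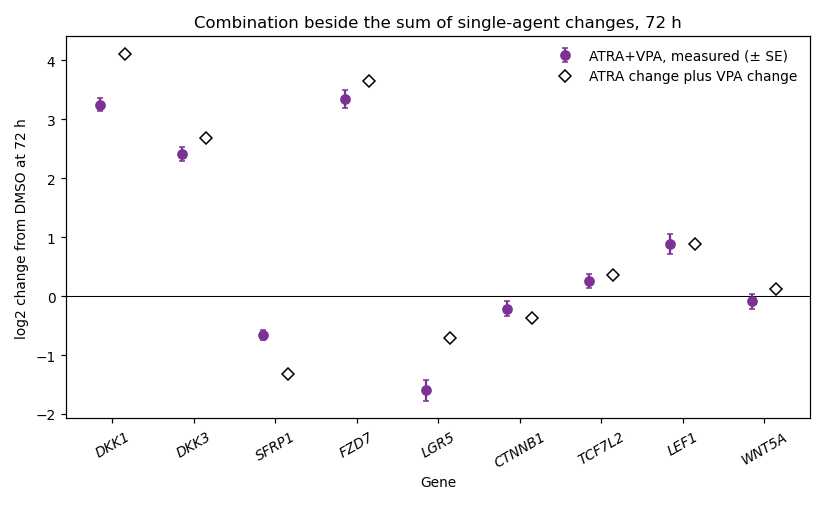
Measured log2 change with ATRA+VPA against DMSO at 72 h (filled points with standard errors) beside the sum of the separate ATRA and VPA changes (open diamonds) for each of the 9 measured Wnt genes (x axis). DKK1 lies below its sum (3.25 and 4.12), LGR5 lies below its sum (-1.60 and -0.71) and SFRP1 lies above its sum (-0.66 and -1.33).

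The genes also differed between times within DMSO, where the 3′ to 5′ control ratio averaged 0.272 at 6 h, 1.05 at 24 h and 1.06 at 72 h. In DMSO at 24 h against 6 h, 2 members rose and 3 fell, against 15.2% of all genes called (5.19% rose and 10% fell). Without DMSO 24 h replicate 1 that count was 2 rises and 2 falls, against 5.84% of all genes called. At 72 h against 6 h, 2 rose and 3 fell, against 10.6% (5.08% rose and 5.5% fell). SFRP1 and TCF7L2 rose at both times. DKK1 and LGR5 fell at both times, DKK3 at 24 h and FZD7 at 72 h. The DKK3 fall at 24 h did not pass without DMSO 24 h replicate 1 (adjusted p = 0.0541) or any of 3 further arrays (adjusted p up to 0.198). The rises of TCF7L2 were lost when its 6 probe sets were averaged (0.09 and 0.10), and its 72 h rise also with the 3′ to 5′ ratio as a covariate (0.35, adjusted p = 0.111) and without DMSO 72 h replicate 1 (adjusted p = 0.0837). The SFRP1 rise at 72 h did not pass without either DMSO 72 h array (adjusted p = 0.068 and 0.0768). When only the groups compared were fitted, the 24 h changes of SFRP1, LGR5 and DKK3 did not pass (adjusted p = 0.0678, 0.0725 and 0.223).

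Across the 12 group means the genes did not move as 1 block. The largest correlation in size was that of LGR5 and LEF1, which ran opposite to each other (Pearson r = -0.947), although LEF1 was dim. Next came LEF1 with CTNNB1 (-0.857), LGR5 with CTNNB1 (0.841) and DKK1 with FZD7 (0.811). Then followed DKK3 with LEF1 (0.773), TCF7L2 with CTNNB1 (-0.77) and SFRP1 with FZD7 (-0.735). The 3′ to 5′ control ratio also differed between the groups, and its part in these correlations was not tested. These correlations are over 12 means on 1 set of arrays with shared times and treatments and are given as a description. By the same measure, over 2375 genes whose means spanned at least 1 log2 unit, the closest patterns to FZD7 were SIGIRR (r = 0.981) and SYNJ2 (0.977), and the closest to DKK3 were HIP1R (0.963) and PTPRF (0.955). LGR5 was matched best by ARL2BP (0.955) and NIP7 (0.934), and SFRP1 by CD9 (0.945) and SDC2 (0.920). The best matches of LEF1 were SYT2 (0.961) and SLC2A3 (0.961), those of TCF7L2 were JAM2 (0.943) and IGFBP5 (0.921), and those of DKK1 were MEIS3P1 (0.883) and CCDC92 (0.877).

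Of 108 further Wnt genes listed by role, 82 were measured, and they were called in both directions. With ATRA 14 rose and 3 fell at 24 h (12.5% and 6.03% of all genes) and 11 rose and 10 fell at 72 h (10.7% and 20.2%). With VPA 11 rose and 3 fell at 24 h (9.66% and 2.49% of all genes), and 3 rose and 0 fell at 72 h (4.51% and 2.15%). With ATRA+VPA 11 rose and 3 fell at 24 h (13.5% and 7.79% of all genes) and 16 rose and 5 fell at 72 h (14.9% and 16.6%). The median change of these genes lay between 0.03 and 0.10 on the log2 scale in these 6 comparisons, against -0.02 to 0.05 for all genes.

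Among 14 measured ligand and secretion genes, 4 stayed at or under the highest lower quartile in all groups and 1, WLS, ever averaged above 100. WLS, which carries Wnt proteins to the cell surface, averaged 703 with ATRA+VPA against 474 with DMSO at 72 h (1.49-fold, adjusted p = 4.94e-05). Among 16 further receptors and coreceptors, 1 rose and 5 fell with ATRA at 72 h, where 10.7% of all genes rose and 20.2% fell. The largest of these falls was that of FZD6, with a mean of 58.8 against 134 with DMSO (2.29-fold lower, adjusted p = 1.03e-05), the opposite of FZD7. FZD2, another Frizzled receptor, rose with VPA to 339 at 24 h, against 170.1 with DMSO (2.00-fold, adjusted p = 2.14e-05).

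The list of 9 other inhibitors included BAMBI, a membrane decoy receptor that inhibits TGF-beta signalling and is not an established Wnt inhibitor. BAMBI averaged 3148 with ATRA against 2112 with DMSO at 24 h (log2 change 0.58 ± 0.07, SE, adjusted p = 1.81e-07). KREMEN2, which binds Dickkopf proteins at the cell surface, averaged 99.5 with VPA and 57.6 with DMSO at 24 h (1.79-fold, adjusted p = 0.00411). In the relay of 14 genes, BTRC, part of the ligase that marks beta-catenin for degradation, was 1.73-fold higher with ATRA at 24 h (85.4 against 49.2 with DMSO, adjusted p = 0.000629). APC2, a relative of the scaffold APC, was 1.74-fold higher with ATRA+VPA at 72 h (215 against 122 with DMSO, adjusted p = 0.00336).

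Among the 9 nuclear factors, the Groucho corepressors, which bind TCF and LEF factors in place of beta-catenin, moved in both directions. TLE3 averaged 318 with ATRA against 130.1 with DMSO at 24 h (2.43-fold, adjusted p = 2.29e-07) and 435 with ATRA+VPA against 144 with DMSO at 72 h (3.00-fold, adjusted p = 1.35e-08). TLE2 averaged 427 with ATRA+VPA against 139 with DMSO at 24 h (3.11-fold, adjusted p = 6.34e-10). TLE1 moved the other way, with 412 for ATRA against 836 for DMSO at 24 h (2.01-fold lower, adjusted p = 1.62e-08). TLE4 averaged 1261 with ATRA+VPA against 1756 with DMSO at 72 h (1.39-fold lower, adjusted p = 0.000636). TLE2 itself was lower with ATRA at 72 h, at 109 against 161.8 with DMSO (log2 means turned back to intensity). TLE1, TLE4 and this TLE2 comparison were added after their values were seen. Of 12 further genes reported elsewhere as pathway targets, 5 rose and 1 fell with ATRA+VPA at 72 h, where 14.9% of all genes rose and 16.6% fell. The largest of these rises was that of EPHB3, an ephrin receptor, with 81.4 against 45.1 with DMSO (1.80-fold, adjusted p = 0.00305). In the planar polarity and calcium branch of 8 genes, DAAM1, a formin that acts downstream of Dishevelled, was 2.06-fold higher with ATRA+VPA at 72 h (200.3 against 96.2 with DMSO, adjusted p = 2.61e-05), and PLCB1, a phospholipase, was 1.70-fold higher with ATRA at 24 h (1085 against 639.5, adjusted p = 6.86e-08).

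Markers of other cell types moved beside the 72 h changes. The summed intensity of the 10 measured mesenchymal markers was 8177 with ATRA, 10290 with VPA and 13630 with ATRA+VPA, against 6317 with DMSO, and that of the 9 sympathetic markers was 16390, 23120 and 16140, against 25040. The epithelial sum was 435, 241 and 458 with ATRA, VPA and ATRA+VPA, against 271 with DMSO. In the same order the haematopoietic sum was 164, 135 and 152, against 136, and the Schwann and glial sum 161, 135 and 144, against 142. Such sums are carried by the brightest genes. Over the 12 groups FN1 ran from 147 to 3938 and VIM from 3498 to 6679, but PRRX1 only from 15.2 to 17.8. Of the epithelial markers, KRT19 ran from 46.2 to 448. The part of these markers in the changes of the Wnt genes was not tested.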

How the data were processed

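The deposited table holds 1 intensity per probe set and array on a linear scale, which the authors made with RMA, per the submitters' processing notes; the version and any detection calls are not given in the sources used here. Intensities were transformed as log2(value + 1). Of 22930 probe sets, 125 with several symbols, 3292 with none and 98 control sets were left out, and each of 11940 genes took its brightest probe set. All 12 group means were fitted together on 35 arrays with limma 3.58.1 in R 4.3.3 (lmFit, eBayes, 23 residual and 5.5 prior degrees of freedom), in 23 contrasts with Benjamini-Hochberg adjustment over all genes in each. The same fit was run on all 19415 probe sets.

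The Wnt genes, lists and tests were chosen with earlier results of these data known. All listed genes are reported, and in each wider list the rule took, for each treatment at 24 and 72 h, the gene with the largest called change, some of which are given. Likeness is Pearson's r over group means, 2 genes a member. In simulated data for ATRA against DMSO at 72 h (11940 genes), 96% and 98% of genes planted at log2 changes of 1 and -1 were called, and 54% and 48% at 0.5 and -0.5. Only a small share of genes was planted, with normal noise, whereas 30.9% of all genes were called in the real comparison. The shares recovered there may therefore differ. Alternatives were a replicate block, fits of only the groups compared, the lowest 33.3% of genes left out, the mean of all probe sets, a trended robust prior, array weights, a second quantile normalization, a pseudocount of 32, the 3′ to 5′ ratio as a covariate, and leaving out each array. The same alternatives on the fit over all probe sets were added after seeing the data. Precision is limited by how far a signal stands over background and by the arrays per group. No sequence of AXIN2, DKK3, LGR5, SFRP1 or FZD7 was used here.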

Additional observations from a re-analysis of the deposited data

Results flagged for a closer look

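Several changes from DMSO differed between 72 h and 6 h by the test of that difference (limma, adjusted over all genes), and the share of all genes for which they did was 17.3% for ATRA, 2% for VPA and 17% for ATRA+VPA. Each value below is the log2 change at 72 h minus that at 6 h. For DKK1 the difference was 1.82 with ATRA, 1.68 with VPA and 2.91 with ATRA+VPA (adjusted p = 5.71e-10, 1.56e-08 and 1.12e-14). For DKK3 it was 1.15 with ATRA, 0.695 with VPA and 1.48 with ATRA+VPA (adjusted p = 4.81e-06, 0.0122 and 4.57e-08). The VPA call of DKK3 was lost when its 3 probe sets were averaged (0.35, adjusted p = 0.174), with a second quantile normalization (adjusted p = 0.056) and without DMSO 72 h replicate 1 (adjusted p = 0.0897). FZD7 differed by 1.64 with ATRA and 2.17 with ATRA+VPA (adjusted p = 4.47e-07 and 1.64e-09). SFRP1 differed by -1.56 with ATRA and -0.668 with ATRA+VPA (adjusted p = 1.81e-10 and 0.00019).

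LGR5 differed by -0.837 with ATRA and -1.04 with ATRA+VPA (adjusted p = 0.0155 and 0.00244). The ATRA call of LGR5 was lost with the 3′ to 5′ ratio as a covariate (-0.59, adjusted p = 0.134) and without ATRA 72 h replicate 1 (adjusted p = 0.0621) or DMSO 72 h replicate 2 (adjusted p = 0.0661), and both LGR5 calls were lost when its 2 probe sets were averaged (adjusted p = 0.344 and 0.346). CTNNB1 differed by -0.485 with ATRA (adjusted p = 0.0492), a call lost in 10 of 11 fits that left out 1 array and with the ratio as a covariate (-0.26, adjusted p = 0.368). For DKK1, FZD7 and LGR5 the DMSO level fell over the same time, and for SFRP1 it rose. The single agents share their DMSO arrays.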

How the results depend on the processing

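Under the 9 other settings and every fit that left out 1 array, 59 of 91 calls on the 9 measured genes were kept, and no called change turned its direction. By comparison these were 9 of 11 for ATRA against DMSO, 7 of 15 for VPA, 13 of 16 for ATRA+VPA, 8 of 12 each for ATRA+VPA against ATRA and against VPA, 1 of 2 for the interaction, 4 of 10 for DMSO over time and 9 of 13 for the change at 72 h minus that at 6 h. The 2 interaction calls became 1 when all probe sets of a gene were averaged and 4 without DMSO 24 h replicate 3. Leaving out 1 array gave 10 to 12 calls for ATRA, 13 to 17 for VPA, 14 to 17 for ATRA+VPA, 2 to 4 for the interaction, and 59 to 74 calls on the 23 probe sets, where all arrays gave 69.

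Same-numbered arrays of a time did not deviate together (mean r = -0.00913 over 51 pairs, from -0.296 to 0.348), so the numbers were not taken to pair samples. With the replicate number as a block there were 11 calls for ATRA, 16 for VPA, 16 for ATRA+VPA, 13 against ATRA, 12 against VPA, 3 for the interaction, 10 for DMSO over time, 14 for the change at 72 h minus that at 6 h, and 68 on the probe sets. VPA calls at 24 h were lost for DKK1, SFRP1, FZD7, LEF1 and TCF7L2 when only the groups compared were fitted (adjusted p from 0.0778 to 0.175). That fit estimates the spread from fewer arrays. It includes the DMSO 24 h arrays, whose residual SDs in the main fit were 0.234, 0.144 and 0.161. What led to the loss was not tested. Low signals (WNT5A, LEF1, the second LGR5 probe set) and 2 or 3 arrays a group limit what can be told.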
